A study of Homo sapiens with 36 samples.

Results

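The 9 genes described here are long noncoding RNAs (lncRNAs) that act in the nucleus or serve as hosts of microRNAs: NEAT1, MALAT1, PVT1, LINC-PINT, TP53TG1, MIR34AHG, MIR17HG, MIR155HG and MIR22HG. They were chosen by symbol, with earlier results of these data known, from 59041 genes whose transcripts were matched to an annotation. All 9 were found in the files. Counts of members beside shares of all genes are therefore descriptions and not independent support. HL60, MOLM13 and OCIAML3, established human acute myeloid leukemia cell lines labelled as wild type, received DMSO as solvent control, cytarabine at 0.1 µM, daunorubicin at 0.02 µM or the drugs together at these doses (the combination) over 24 h, and total RNA was sequenced from 3 libraries labelled as biological replicates in each of 12 groups. Cytarabine is a nucleoside analog that is built into DNA and stalls its replication, while daunorubicin, an anthracycline, inserts between DNA bases and traps topoisomerase II on the broken strands. No label says whether the 3 replicates of a group were grown and treated on separate days, so p-values rest only on how these libraries vary and that variation may be technical. All 9 genes passed the low-count filter in MOLM13 and in OCIAML3, and 7 did in HL60, where MIR34AHG and MIR155HG fell under it.

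NEAT1 is the RNA scaffold of paraspeckles, nuclear bodies that hold RNA-binding proteins, and only its long isoform builds them. MALAT1 is an abundant RNA of nuclear speckles, where splicing factors gather. PVT1 lies next to the oncogene MYC, LINC-PINT and TP53TG1 are lncRNAs known to respond to DNA damage, and MIR34AHG carries the hairpin of miR-34a, a microRNA that represses genes of cell division. MIR17HG, also known as a target of MYC, carries the hairpins of the miR-17-92 cluster, which favours proliferation, MIR155HG carries that of miR-155, a microRNA of activated immune cells, and MIR22HG carries that of miR-22. A host RNA is cut in the nucleus by DROSHA with DGCR8, the hairpin is exported by XPO5, cut again by DICER1 and loaded on an AGO protein, which reads target RNAs through the seed, bases 2 to 8 of the mature microRNA.

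The mature microRNAs of 3 hosts are shown first: those of MIR34AHG and MIR17HG, the hosts called in all 3 comparisons of MOLM13 with DMSO, and that of MIR155HG, whose level differed between all 3 lines. They were not measured: each of the 17 hairpin entries that lie within the members was at 0 estimated counts in all 36 libraries. The RefSeq sequences (GRCh38.p14) are given 5′ to 3′ with the seed in capitals. A hairpin can give a mature microRNA from each of its arms, and the other arm of each hairpin is left out here.
miR-34a-5p: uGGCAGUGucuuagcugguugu
miR-17-5p: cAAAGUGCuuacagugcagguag
miR-20a-5p: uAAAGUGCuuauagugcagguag
miR-18a-5p: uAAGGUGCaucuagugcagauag
miR-19a-3p: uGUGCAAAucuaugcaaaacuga
miR-19b-3p: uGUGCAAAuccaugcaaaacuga
miR-92a-3p: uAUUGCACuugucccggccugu
miR-155-5p: uUAAUGCUaaucgugauagggguu
The 6 microRNAs shown for the MIR17HG cluster fall into 4 seeds. miR-17-5p and miR-20a-5p share the seed AAAGUGC, miR-19a-3p and miR-19b-3p share GUGCAAA, and miR-18a-5p and miR-92a-3p have seeds of their own. MIR34AHG and MIR155HG each give a single hairpin, and the microRNA shown for each has another seed.

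The promoters of the host that rose most and of the host that fell most are shown as well, from 250 bases before to 50 bases after the RefSeq start, read on the strand of the gene. The RefSeq start of MIR34AHG lies within the span that GENCODE gives the gene. Capitals mark the GC box GGGCGG on either strand.
MIR34AHG, chr1:9182289-9182588, minus strand: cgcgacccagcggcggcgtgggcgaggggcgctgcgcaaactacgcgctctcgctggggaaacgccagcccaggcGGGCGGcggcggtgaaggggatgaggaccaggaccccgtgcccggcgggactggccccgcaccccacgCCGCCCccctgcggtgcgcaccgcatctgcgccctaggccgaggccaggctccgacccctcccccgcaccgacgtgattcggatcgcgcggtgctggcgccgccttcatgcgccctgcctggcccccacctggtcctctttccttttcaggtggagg
MIR17HG, chr13:91347437-91347736, plus strand: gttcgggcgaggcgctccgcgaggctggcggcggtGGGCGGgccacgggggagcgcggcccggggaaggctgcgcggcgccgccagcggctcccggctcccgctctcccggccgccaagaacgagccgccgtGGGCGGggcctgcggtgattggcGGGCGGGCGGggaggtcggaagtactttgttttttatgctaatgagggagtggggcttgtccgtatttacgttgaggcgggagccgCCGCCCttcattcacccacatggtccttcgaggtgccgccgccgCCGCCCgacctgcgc
The MIR34AHG window held 2 GC boxes and the MIR17HG window 6, 2 of which overlap. GC boxes were in 45.0% of 35116 promoter windows of this length. No window of NEAT1 or PVT1 was searched. CACGTG, the E-box that MYC binds, was in 7.26% of windows and, among those of the other members, in 1 of the 4 of LINC-PINT. The E2F motifs TTTCCCGC (1.63% of windows) and TTTGGCGC (0.652%) were in none of the members' windows searched. TGANTCA, the motif of AP-1, was in 7.71% of windows, including that of MIR155HG, 60 bases before the start, and 1 of LINC-PINT. A match is a description of the letters and not a site.

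Libraries held 25067734 to 47322144 estimated counts (median 32194478). Of 7 genes that mark myeloid leukemia cells, 7 reached a mean of 1 CPM (counts scaled to library size, with TMM factors within a line) in MOLM13 and OCIAML3 and 6 did in HL60, where ELANE, a neutrophil protease, was at 0.197 ± 0.218 TPM (a share of transcripts that takes their length into account) with DMSO. The 7 markers summed to 4090 to 4910 CPM in the HL60 DMSO libraries, 1760 to 2210 CPM with cytarabine and 1330 to 1570 CPM with the combination. The markers did not all go down with this sum. Of 6 tested in HL60, 2 were called up and 1 down after cytarabine, against 16.9% of all genes called. After the combination 2 were called up and 2 down, against 23.3%. What part these changes have in the results below was not tested. Summed markers of T cells (2 genes), erythroid cells (3) and stromal cells (3) stayed at or under 2.58 CPM in every library, those of epithelial cells (2) at or under 3.23 CPM and those of B cells (3) at or under 11.6 CPM. In HL60 the low levels of 3 of these lists were higher with treatment. The B cell markers summed to 2.03 to 2.37 CPM with DMSO, 8.48 to 9.58 CPM with cytarabine, 4.23 to 8.16 CPM with daunorubicin and 9.25 to 11.6 CPM with the combination, with MS4A1 at 0. The stromal markers summed to 0.0382 to 0.243 CPM with DMSO, 1.37 to 2.38 CPM with cytarabine, 0.502 to 1.27 CPM with daunorubicin and 2.39 to 2.58 CPM with the combination, with DCN at 0, and the T cell markers to at most 0.0696 CPM with DMSO and 0.692 to 1.55 CPM with the combination. The 2 B cell markers, 1 stromal marker and 1 T cell marker that passed the count filter in HL60 were called up after every treatment. MOLM13 had such calls too. There 1 of 2 B cell markers tested was called up after cytarabine, and the 1 T cell marker tested after cytarabine and daunorubicin. The part of these markers in the results was not tested. In OCIAML3, replicate 3 of cytarabine and replicate 3 of the combination stood apart from the other 2 of their group: CDKN1A, the cell cycle inhibitor p21, was at 378 CPM in the former against 110 and 102 CPM, and at 84.3 CPM in the latter against 1390 and 1080 CPM. The DMSO libraries of this line held 78.5 to 105 CPM and the daunorubicin libraries 391 to 1260 CPM. So the library labelled cytarabine replicate 3 was near the lowest daunorubicin library, and the one labelled combination replicate 3 was at the DMSO level. Both were kept under their labels, and whether these labels are right was not tested. OCIAML3 results are therefore given with all 12 libraries and with the 10 that are left without these. Their values of CDKN1A and of members such as MIR34AHG were known when this was chosen. The p-values over 10 libraries are therefore not independent of the choice.

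With DMSO, MALAT1 was the most abundant of the 9 genes per transcript length in each line, at 73.2 ± 14.7 TPM in HL60, 117 ± 24.6 TPM in MOLM13 and 204 ± 29.4 TPM in OCIAML3. PVT1 came next in MOLM13 (64.7 ± 8.31 TPM) and OCIAML3 (37.3 ± 1.20 TPM). In HL60, MIR17HG (32.3 ± 10.7 TPM), NEAT1 (19.6 ± 2.21 TPM) and PVT1 (19.2 ± 4.29 TPM) followed, with ranges that overlapped from each to the next. MIR155HG was the third in MOLM13 (29.2 ± 3.91 TPM, libraries at 28.1, 25.9 and 33.5 TPM) and was close to absent in HL60 (0.134, 0 and 0.0313 TPM). LINC-PINT (0.960 ± 0.470 TPM) and MIR22HG (0.615 ± 0.531 TPM) were the lowest in MOLM13 and overlapped each other, as they did in OCIAML3.

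**Figure D1:**
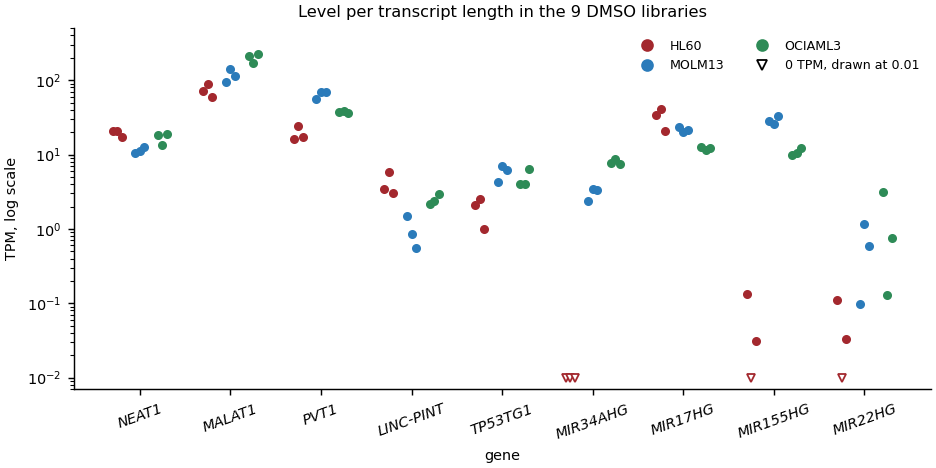
Level of the 9 genes in TPM, on a log scale, in each of the 3 DMSO libraries of HL60 (red), MOLM13 (blue) and OCIAML3 (green), with triangles for values of 0. MIR34AHG was at 0 in all 3 HL60 libraries, and MALAT1 was highest in each line.

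The lines differed in these genes before any drug. Between HL60 and MOLM13, 6 of 9 members were called (false discovery rate under 0.05 and log2 fold change over 1 in size), against 30.6% of all genes tested over the 9 DMSO libraries. The count was 5 of 9 between HL60 and OCIAML3, against 38.3%, and 5 of 9 between MOLM13 and OCIAML3, against 30.9%. PVT1 was lower in HL60 than in MOLM13 by a log2 fold change of -1.86 ± 0.11 (adjusted p = 6.24e-08), and MOLM13 exceeded OCIAML3 by 1.13 ± 0.11 (adjusted p = 3.63e-06). LINC-PINT was higher in HL60 than in MOLM13, by 1.94 ± 0.21 (adjusted p = 9.85e-06). MIR17HG ran from HL60 down to OCIAML3, with 0.63 ± 0.20 (adjusted p = 0.0174) for HL60 against MOLM13, which passed at the false discovery rate alone, and 1.18 ± 0.21 (adjusted p = 0.000434) for MOLM13 against OCIAML3. TP53TG1 was lower in HL60 than in MOLM13, with a log2 fold change of -1.66 ± 0.30 (adjusted p = 0.000502), while MOLM13 and OCIAML3 differed by 0.45 ± 0.28 (adjusted p = 0.186). Without replicate 3 of HL60 DMSO, in which TP53TG1 was lowest, 3 members and not 5 were called between HL60 and OCIAML3. MIR22HG was among the called genes in both comparisons of HL60, but its calls were lost when any of several libraries was left out (2 HL60 libraries and 2 MOLM13 libraries in the comparison of these lines, and 2 HL60 libraries and 1 OCIAML3 library in the other).

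Each treatment was then compared with DMSO within its line by edgeR's quasi-likelihood test across all genes. The 3 comparisons of a line share its DMSO libraries and are not independent. Below, a gene rose or fell if its false discovery rate was under 0.05, and it was called if its log2 fold change also passed 1 in size. In HL60, 1 of 7 tested members was called after cytarabine, against 16.9% of all genes, 1 of 7 after daunorubicin, against 7.3%, and 2 of 7 after the combination, against 23.3%. In MOLM13, 2 of 9 were called after cytarabine, against 8.13%, and 6 of 9 after daunorubicin, against 17% of all genes. After the combination MOLM13 had 6 of 9 called as well, against 17.4%. In OCIAML3 with 12 libraries no member was called after cytarabine, daunorubicin or the combination, by edgeR or by DESeq2, and edgeR called 0%, 0% and 0% of all genes in these comparisons; 0, 5 and 6 members had an unadjusted p under 0.05. With 10 libraries, no member was called after cytarabine (0% of genes called, 1 member with an unadjusted p under 0.05), none after daunorubicin (4.15% of genes called, 7 members with an unadjusted p under 0.05) and 4 of 9 after the combination (7.86% of genes called). DESeq2 gave the same 0, 0 and 4.

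At the false discovery rate alone, the HL60 counts were 1, 1 and 4 of 7 members after cytarabine, daunorubicin and the combination, against 45.6%, 21.9% and 53.3% of all genes. The MOLM13 counts were 5, 7 and 6 of 9, against 34.9%, 52.7% and 53.1%. Over the 10 OCIAML3 libraries they were 0, 6 and 8 of 9, against 0%, 31.3% and 41.7%. The median log2 fold change of the members was 1.45 after daunorubicin and 1.22 after the combination in MOLM13, where the medians of all genes were 0.0681 and 0.0709. Replicate numbers moved together in HL60, and with the replicate number as a block its counts of called members stayed at 1, 1 and 2. At the false discovery rate alone the block did change HL60 results. With it MALAT1 passed after cytarabine and after daunorubicin, and TP53TG1 after the combination, which they did not without it (values below).

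**Figure D2:**
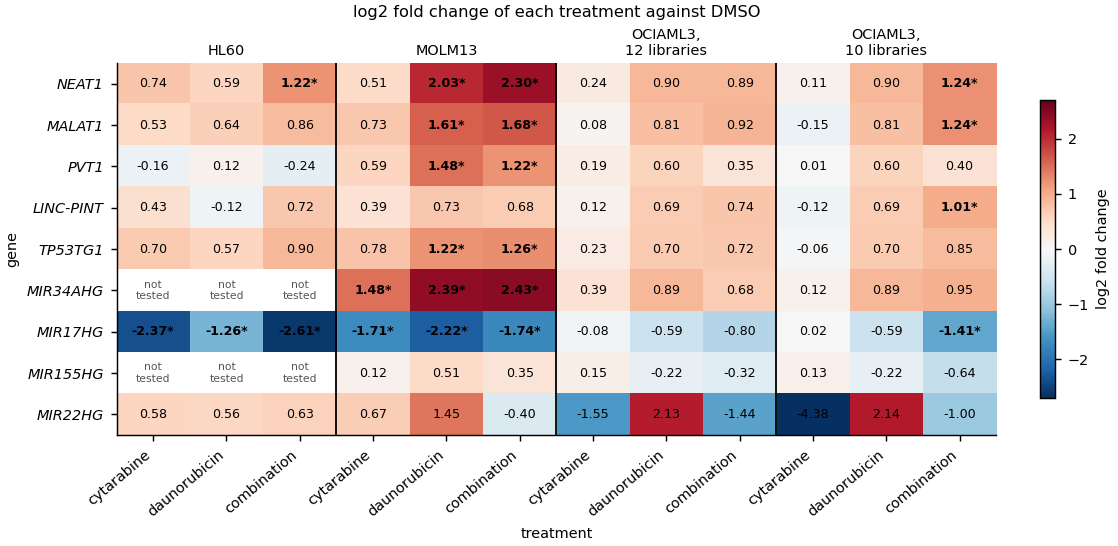
Log2 fold change of each of the 9 genes (rows) after each treatment against DMSO (columns), in HL60, MOLM13 and OCIAML3 with 12 and with 10 libraries, with called genes in bold with an asterisk and colours that stop at the ends of the bar. MIR17HG was called in all 3 comparisons of HL60 and of MOLM13, and MIR34AHG in all 3 of MOLM13.

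MIR34AHG (chromosome 1, 9148011 to 9198906, minus strand, GRCh38), the host of miR-34a, rose most of the members in MOLM13. In this line it was at 7.93, 12.3 and 11.6 CPM with DMSO, 29.3, 31.6 and 27.7 CPM with cytarabine, 51.8, 60.3 and 54.9 CPM with daunorubicin and 38.7, 69.2 and 63.6 CPM with the combination. Every treated library lay above every DMSO library, and all cytarabine libraries lay below all those of the other treatments. The log2 fold change was 1.48 ± 0.21 (adjusted p = 0.000376) after cytarabine, 2.39 ± 0.21 (adjusted p = 1.13e-05) after daunorubicin and 2.43 ± 0.21 (adjusted p = 1.28e-05) after the combination, so that levels were 2.78, 5.25 and 5.39 times those with DMSO. In these bulk samples more RNA per cell and a change in which cells remained cannot be told apart. The same limit holds for the other members and for the differences between lines. The paper reported the death of most MOLM13 cells after each treatment, by a viability assay, and little in HL60 after daunorubicin.

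OCIAML3 started higher, at 23.5, 26.0 and 22.6 CPM with DMSO, 25, 27.3 and 42.4 CPM with cytarabine, 45.4, 46.5 and 41.9 CPM with daunorubicin and 45.3, 47.9 and 22.8 CPM with the combination, in order of replicate. The third cytarabine library was at the level of the daunorubicin libraries and the third combination library at that of the DMSO libraries. These values were known when both were left out, so the fit without them is no independent test of this gene. With all 12 libraries the log2 fold changes were 0.89 ± 0.26 (adjusted p = 0.122) after daunorubicin and 0.68 ± 0.26 (adjusted p = 0.209) after the combination. Without these 2 libraries MIR34AHG rose by 0.89 ± 0.07 (adjusted p = 0.00032) after daunorubicin and 0.95 ± 0.08 (adjusted p = 0.000247) after the combination, and cytarabine gave 0.12 ± 0.08 (adjusted p = 1).

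In HL60, MIR34AHG had 0 counts in 11 of 12 libraries and 3 counts in replicate 1 of the combination. Taking 3 counts over the 3 DMSO libraries as the limit that a count of 0 allows (0.0357 CPM), MIR34AHG was at least 297-fold higher in MOLM13 and at least 673-fold higher in OCIAML3 with DMSO, with CPM scaled within each line. With the limits of the treated HL60 groups (0.0309 and 0.0331 CPM), MOLM13 was at least 954-fold higher with cytarabine and at least 1680-fold higher with daunorubicin. LNCTAM34A, an lncRNA on the opposite strand that shares 431 exonic bases with MIR34AHG, also averaged 0 CPM in HL60, with 2.43 CPM in MOLM13 and 2.46 CPM in OCIAML3; libraries without strand cannot separate reads from the shared bases. MIR34AHG-204, a transcript of 4211 bases with the miR-34a hairpin in an exon, held 97.4 ± 1.38% of the TPM of the gene in MOLM13 with DMSO and 97.1 ± 0.277% with daunorubicin.

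**Figure D3:**
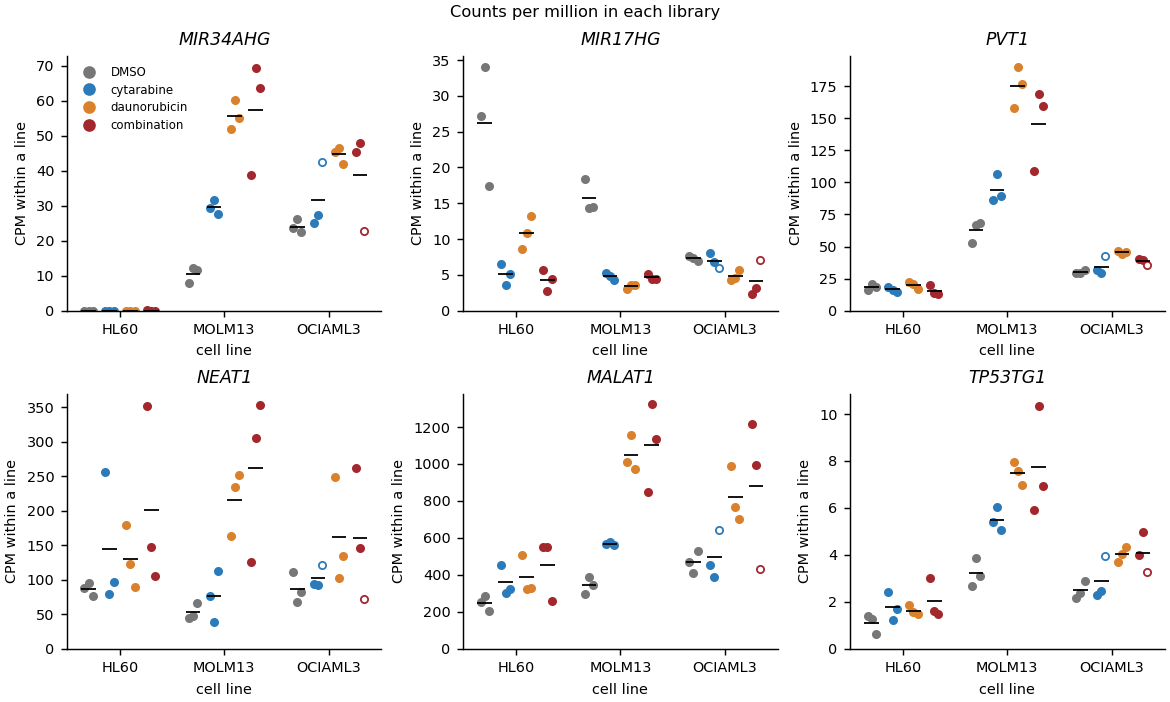
CPM, scaled within a line, of 6 of the genes in every library of HL60, MOLM13 and OCIAML3, coloured by treatment, with a bar at the mean of 3 libraries and open circles for the 2 OCIAML3 libraries that stand apart. MIR34AHG, PVT1, MALAT1 and TP53TG1 lay above DMSO in every daunorubicin library of MOLM13, and MIR17HG lay below it in every treated library of HL60 and MOLM13.

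MIR17HG (chromosome 13, 91347686 to 91397592, plus strand), the host of the miR-17-92 cluster, fell in both HL60 and MOLM13 after every treatment. HL60 held 27.1, 34.0 and 17.5 CPM with DMSO, 6.58, 3.54 and 5.09 CPM with cytarabine, 8.67, 10.9 and 13.2 CPM with daunorubicin and 5.67, 2.79 and 4.47 CPM with the combination. The treated libraries lay below all DMSO libraries, and those with cytarabine, alone or combined, lay below those with daunorubicin alone. Against DMSO the log2 fold change was -2.37 ± 0.31 (adjusted p = 6.38e-05) for cytarabine, -1.26 ± 0.30 (adjusted p = 0.00963) for daunorubicin and -2.61 ± 0.31 (adjusted p = 1.64e-05) for the combination.

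MOLM13 held 18.4, 14.3 and 14.5 CPM of MIR17HG with DMSO, 5.27, 4.82 and 4.33 CPM with cytarabine, 2.98, 3.65 and 3.52 CPM with daunorubicin and 5.15, 4.48 and 4.48 CPM with the combination. Here daunorubicin gave the lowest values. The fold changes were -1.71 ± 0.15 (adjusted p = 5.12e-05), -2.22 ± 0.15 (adjusted p = 6.25e-06) and -1.74 ± 0.15 (adjusted p = 1.14e-05) in the same order. OCIAML3 held 7.69, 7.37 and 6.87 CPM with DMSO, 8.01, 6.79 and 5.99 CPM with cytarabine, 4.23, 4.62 and 5.74 CPM with daunorubicin and 2.26, 3.2 and 7.07 CPM with the combination. Replicate 3 of the combination was at the DMSO level, and the fold change of this comparison was -0.80 ± 0.33 (adjusted p = 0.209) with 12 libraries and -1.41 ± 0.19 (adjusted p = 0.000784) with 10. After daunorubicin MIR17HG fell by 0.59 ± 0.16 on the log2 scale with 10 libraries (adjusted p = 0.0224), and cytarabine gave 0.02 ± 0.18 (adjusted p = 1).

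Of the 5 MIR17HG transcripts in the files, 2 held nearly all of its TPM. MIR17HG-203, of 5511 bases, has the 6 hairpins in its exons, and MIR17HG-205, of 707 bases (91352584 to 91354577), begins downstream of them. The hairpin transcript averaged 17.7 ± 5.70 CPM in HL60 with DMSO and 2.10 ± 0.741 CPM with the combination, and 10.6 ± 2.29 CPM in MOLM13 with DMSO and 2.19 ± 0.163 CPM with daunorubicin (mean ± SD, n = 3). The downstream transcript went from 8.29 ± 2.71 to 2.03 ± 1.26 CPM and from 5.07 ± 0.321 to 1.19 ± 0.248 CPM in the same groups. MIR17HG-203 held 67.7 ± 2.48% of the estimated counts of the gene with DMSO and 49.5 ± 12.4% with the combination in HL60, and 67.0 ± 4.60% and 65.1 ± 4.40% with DMSO and daunorubicin in MOLM13. Shares of transcripts rest on an estimated split of shared reads and were not tested. MYC, which was measured beside it as a regulator, fell by 1.19 ± 0.20 (adjusted p = 0.000399) after cytarabine and by 2.02 ± 0.21 (adjusted p = 5.63e-06) after the combination in HL60, and was at 0.01 ± 0.20 (adjusted p = 0.989) after daunorubicin. It fell in all 3 comparisons of MOLM13 as well, with the values given beside PVT1.

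NEAT1 (chromosome 11, 65422774 to 65445540, plus strand), the paraspeckle scaffold, rose after daunorubicin and the combination in MOLM13. This line held 45.0, 47.6 and 66.6 CPM with DMSO, 76.1, 39.1 and 112 CPM with cytarabine, 163, 235 and 251 CPM with daunorubicin and 126, 306 and 353 CPM with the combination. The daunorubicin and combination libraries lay above all DMSO libraries, with replicate 1 of the combination well under the other 2, and the cytarabine libraries overlapped those of DMSO. The log2 fold changes were 2.03 ± 0.41 (adjusted p = 0.00163) and 2.30 ± 0.42 (adjusted p = 0.000755), and 0.51 ± 0.40 (adjusted p = 0.354) for cytarabine. With effective transcript lengths taken into account, the value after daunorubicin was 1.33 (adjusted p = 0.0599) and no longer passed.

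In HL60 the NEAT1 values were 87.9, 95.2 and 75.8 CPM with DMSO, 256, 78.8 and 97.0 CPM with cytarabine, 179, 122 and 90.0 CPM with daunorubicin and 352, 147 and 106 CPM with the combination. Replicate 1 was the highest of its group for each treatment. The combination gave a log2 fold change of 1.22 ± 0.46 (adjusted p = 0.0366), which was 0.55 (adjusted p = 0.284) without replicate 1 of the combination, 1.23, 1.29 and 1.13 (adjusted p = 0.0827, 0.0681 and 0.106) without DMSO replicate 1, 2 or 3, 0.81 (adjusted p = 0.21) with effective lengths and 1.22 (adjusted p = 0.0708) by DESeq2. OCIAML3 held 111, 67.8 and 81.6 CPM with DMSO, 94.3, 92.8 and 121 CPM with cytarabine, 248, 102 and 134 CPM with daunorubicin and 262, 147 and 71.9 CPM with the combination. The combination gave 0.89 ± 0.42 (adjusted p = 0.226) with 12 libraries and 1.24 ± 0.35 (adjusted p = 0.0172) with 10. The latter missed the threshold in 3 of the 10 fits that left out 1 library more: it was 0.78 (adjusted p = 0.199) without replicate 1 of the combination, 1.08 (adjusted p = 0.0609) without DMSO replicate 2 and 1.21 (adjusted p = 0.0526) without DMSO replicate 3.

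The long isoform of NEAT1, NEAT1-202, is a single exon of 22743 bases (65422798 to 65445540), and the files list 8 other transcripts. NEAT1-202 held 54.7 ± 6.56% of the estimated counts of NEAT1 in MOLM13 with DMSO and 83.2 ± 1.89% with daunorubicin. Per transcript length these were 15 ± 3.75% and 37.5 ± 7.52% of TPM. Its values in MOLM13 were 22.7, 24.4 and 41.4 CPM with DMSO, 134, 193 and 214 CPM with daunorubicin and 90.6, 224 and 260 CPM with the combination. The long isoform was higher in every library of both treatments than in any DMSO library. The other transcripts together were at 22.2, 23.2 and 25.1 CPM with DMSO, 29.2, 41.9 and 36.8 CPM with daunorubicin and 35.6, 82.3 and 92.8 CPM with the combination, also without overlap. With cytarabine the long isoform was at 60.6, 37.4 and 72.9 CPM and the other transcripts at 15.5, 1.68 and 39.3 CPM. Overlapping transcripts share reads, so this split is an estimate with an error that is not known here. The split was not tested.

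**Figure D4:**
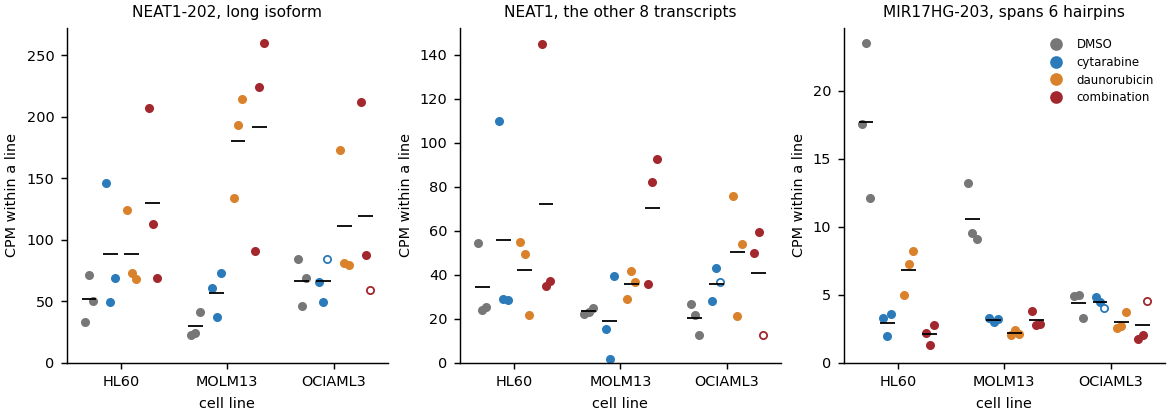
CPM, scaled within a line, of the long NEAT1 isoform, of the other 8 NEAT1 transcripts together and of the MIR17HG transcript with the 6 hairpins, in every library, coloured by treatment, with bars at the mean and open circles for the 2 OCIAML3 libraries that stand apart. The long NEAT1 isoform was higher in all daunorubicin and combination libraries of MOLM13 than with DMSO, and MIR17HG-203 was lower in all treated libraries of HL60 and MOLM13.

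MALAT1 (chromosome 11, 65497640 to 65508073, plus strand), the speckle RNA that lies near NEAT1, rose in MOLM13 after every treatment. The libraries held 295, 389.7 and 344 CPM with DMSO, 566, 579 and 561 CPM with cytarabine, 1011, 1156 and 971 CPM with daunorubicin and 846, 1322 and 1134 CPM with the combination. The cytarabine libraries lay between those of DMSO and those of the other treatments with no overlap. The log2 fold change was 0.73 ± 0.14 (adjusted p = 0.0026) after cytarabine, 1.61 ± 0.15 (adjusted p = 1.26e-05) after daunorubicin and 1.68 ± 0.15 (adjusted p = 1.25e-05) after the combination.

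HL60 held 254, 286 and 205 CPM of MALAT1 with DMSO, 454, 303 and 324 CPM with cytarabine, 508, 324 and 327 CPM with daunorubicin and 548, 548 and 258 CPM with the combination. The single drugs lay above DMSO without overlap, and replicate 3 of the combination fell among the DMSO libraries. MALAT1 rose by 0.86 ± 0.27 (adjusted p = 0.0148) after the combination, while cytarabine gave 0.53 ± 0.27 (adjusted p = 0.118) and daunorubicin 0.64 ± 0.27 (adjusted p = 0.103); with the replicate number as a block these were 0.53 (adjusted p = 0.024) and 0.62 (adjusted p = 0.0169). OCIAML3 held 467, 407 and 527 CPM with DMSO, 452, 388 and 645 CPM with cytarabine, 989, 768 and 704 CPM with daunorubicin and 1215, 996 and 432 CPM with the combination. With 10 libraries MALAT1 rose by 0.81 ± 0.14 (adjusted p = 0.00366) after daunorubicin and 1.24 ± 0.15 (adjusted p = 0.000611) after the combination, and with 12 these were 0.81 ± 0.32 (adjusted p = 0.135) and 0.92 ± 0.32 (adjusted p = 0.209). MALAT1-202, the unspliced transcript of 10434 bases, held between 53.3% and 63.0% of its estimated counts as group means.

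PVT1 (chromosome 8, 127794526 to 128187101, plus strand) rose in MOLM13 and did not pass the test in HL60. MOLM13 held 53, 66.8 and 68.2 CPM with DMSO, 86.5, 106 and 89.3 CPM with cytarabine, 158, 189.7 and 176 CPM with daunorubicin and 109, 169 and 159.7 CPM with the combination. All treated libraries lay above all DMSO libraries, with log2 fold changes of 0.59 ± 0.16 (adjusted p = 0.0142), 1.48 ± 0.16 (adjusted p = 2.89e-05) and 1.22 ± 0.16 (adjusted p = 9.56e-05). HL60 held 16.4, 20.7 and 18.4 CPM with DMSO, 18.5, 16.4 and 14.6 CPM with cytarabine, 22.3, 20.8 and 17.2 CPM with daunorubicin and 20.2, 13.8 and 13 CPM with the combination. These groups overlapped, with -0.16 ± 0.18 (adjusted p = 0.478), 0.12 ± 0.18 (adjusted p = 0.671) and -0.24 ± 0.18 (adjusted p = 0.273).

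OCIAML3 held 29.6, 29.5 and 31.4 CPM of PVT1 with DMSO, 31.6, 29.2 and 42.4 CPM with cytarabine, 46.6, 44.5 and 45.8 CPM with daunorubicin and 40.3, 39.6 and 35.8 CPM with the combination. The DMSO and daunorubicin libraries were close together within their groups and did not overlap. With 10 libraries PVT1 rose by 0.60 ± 0.06 (adjusted p = 0.00052) after daunorubicin and 0.40 ± 0.06 (adjusted p = 0.00113) after the combination, against 0.60 ± 0.12 (adjusted p = 0.122) and 0.35 ± 0.12 (adjusted p = 0.209) with 12. MYC, whose near end lies 51575 bases from PVT1 on the same strand, went the other way in MOLM13, where it fell by 1.49 ± 0.16 (adjusted p = 9.49e-05), 1.19 ± 0.16 (adjusted p = 9.27e-05) and 0.98 ± 0.16 (adjusted p = 0.000343) on the log2 scale after cytarabine, daunorubicin and the combination. The files list 183 PVT1 transcripts, of which 23 were at 0 in every library, and no single transcript held most of its TPM.

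TP53TG1 (chromosome 7, 87322943 to 87345560, minus strand) rose in MOLM13 after every treatment. Values were 2.65, 3.89 and 3.09 CPM with DMSO, 5.41, 6.05 and 5.05 CPM with cytarabine, 7.95, 7.57 and 7.0 CPM with daunorubicin and 5.89, 10.4 and 6.94 CPM with the combination, without overlap with DMSO. The log2 fold changes were 0.78 ± 0.21 (adjusted p = 0.0149), 1.22 ± 0.21 (adjusted p = 0.000612) and 1.26 ± 0.21 (adjusted p = 0.000487), the last of which was 0.97 (adjusted p = 0.00158) without replicate 2 of the combination. CROT, a peroxisomal carnitine acyltransferase that starts 104 bases away on the opposite strand, rose in MOLM13 too, by 1.10 ± 0.13 (adjusted p = 0.000168), 1.04 ± 0.13 (adjusted p = 7.92e-05) and 0.99 ± 0.13 (adjusted p = 0.000112). In HL60, where TP53TG1 was low (1.37, 1.29 and 0.618 CPM with DMSO and 2.99, 1.62 and 1.48 CPM with the combination), the combination gave 0.90 ± 0.38 (adjusted p = 0.0628), and 0.87 (adjusted p = 0.0212) with the replicate number as a block. In OCIAML3 the values were 2.18, 2.39 and 2.89 CPM with DMSO, 3.71, 4.04 and 4.34 CPM with daunorubicin and 3.99, 4.98 and 3.29 CPM with the combination. With 10 libraries TP53TG1 rose there by 0.70 ± 0.16 (adjusted p = 0.0105) after daunorubicin and 0.85 ± 0.18 (adjusted p = 0.00371) after the combination, against 0.70 ± 0.23 (adjusted p = 0.124) and 0.72 ± 0.23 (adjusted p = 0.209) with 12.

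LINC-PINT (chromosome 7, 130791264 to 131110176, minus strand) rose in HL60 after the combination and did not pass the test after either drug alone in HL60 or MOLM13. HL60 held 4.85, 6.99 and 5.53 CPM with DMSO, 8.83, 6.97 and 7.63 CPM with cytarabine, 5.69, 6.36 and 3.91 CPM with daunorubicin and 12, 10.0 and 6.61 CPM with the combination. It rose by 0.72 ± 0.24 (adjusted p = 0.024) after the combination and was at -0.12 ± 0.25 (adjusted p = 0.775) after daunorubicin. The difference of 0.84 ± 0.25 (adjusted p = 0.0183) between the combination and daunorubicin passed as well. In OCIAML3 it was at 4.27, 3.74 and 3.88 CPM with DMSO, 7.90, 6.06 and 5.28 CPM with daunorubicin and 9.21, 6.78 and 3.93 CPM with the combination. There it rose with 10 libraries, by 0.69 ± 0.17 (adjusted p = 0.015) and 1.01 ± 0.19 (adjusted p = 0.00247), where 12 libraries gave 0.69 ± 0.29 (adjusted p = 0.144) and 0.74 ± 0.29 (adjusted p = 0.209). With effective lengths the value of the combination with 10 libraries was 0.68 (adjusted p = 0.102) and no longer passed. It was also no longer over 1 with the replicate block (0.92) or in 4 of the 10 fits that left out 1 library more (0.79 to 1.2 over the 10): 0.79 without replicate 1 of the combination, 0.97 without DMSO replicate 2, and 1.0 without cytarabine replicate 1 or 2. MOLM13 levels were low (1.24 to 3.00 CPM over its 12 libraries), with 0.73 ± 0.30 (adjusted p = 0.0589) after daunorubicin. MKLN1, a gene of the opposite strand that shares 81 exonic bases with LINC-PINT, averaged 44, 58.7 and 94.4 CPM in HL60, MOLM13 and OCIAML3, and reads from the shared bases cannot be assigned to a strand.

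MIR155HG (chromosome 21, 25561810 to 25575168, plus strand) was called in no comparison with DMSO. MOLM13 held 27.2, 25.5 and 32.8 CPM with DMSO, 33.6, 29.1 and 30.5 CPM with cytarabine, 47.9, 32.3 and 41.9 CPM with daunorubicin and 44.8, 31.0 and 33.1 CPM with the combination, with overlap in each comparison. It rose by 0.51 ± 0.17 (adjusted p = 0.0227) after daunorubicin. OCIAML3 held 8.76, 8.89 and 10.6 CPM with DMSO and 4.91, 7.17 and 10.4 CPM with the combination. The fold change of the combination there was -0.32 ± 0.22 (adjusted p = 0.347) with 12 libraries and -0.64 ± 0.18 (adjusted p = 0.0152) with 10. HL60 had 5 counts in its 3 DMSO libraries together, and its treated groups had 11 (cytarabine), 6 (daunorubicin) and 7 (combination).

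MIR22HG (chromosome 17, 1711447 to 1717174, minus strand) varied too much between replicates to be compared. In OCIAML3 it was at 5.63, 0.140 and 0.763 CPM with DMSO and 21.1, 6.00 and 1.29 CPM with daunorubicin, and in MOLM13 at 0.207, 2.47 and 1.34 CPM with DMSO and 2.69, 3.25 and 5.15 CPM with daunorubicin. HL60 libraries lay between 0 and 0.498 CPM. The log2 fold change after daunorubicin was 1.45 ± 0.71 (adjusted p = 0.104) in MOLM13 and 2.13 ± 1.31 (adjusted p = 0.272) in OCIAML3, with errors of the size of many effects above. WDR81, a coding gene on the opposite strand that overlaps the span of MIR22HG but shares no exonic base with it, averaged 82.2 CPM in MOLM13.

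Whether a drug acted differently in HL60 and in MOLM13 was tested as the difference of the 2 fold changes over 24 libraries (MOLM13 minus HL60, false discovery rate under 0.05). No such difference could be fitted for MIR34AHG after the single drugs, since HL60 had no counts. For cytarabine, none of the 8 other members passed in edgeR's test (1 with an unadjusted p under 0.05), against 7.77% of all genes, and with the replicate block 1 did, PVT1, with 0.77 (adjusted p = 0.0071). For daunorubicin 2 of 8 passed, against 19.9%, and for the combination 1 of 9, against 28.5%. PVT1 gained 1.35 ± 0.24 (adjusted p = 0.000795) after daunorubicin and 1.47 ± 0.24 (adjusted p = 0.000158) after the combination in MOLM13 over HL60. MALAT1 gained 0.96 ± 0.33 (adjusted p = 0.0456) after daunorubicin, a difference that missed the threshold in 18 of the 24 fits that left out 1 library each (0.77 to 1.21 over the 24). With the replicate block, NEAT1 also passed for daunorubicin (1.53, adjusted p = 0.0187) and for the combination (1.26, adjusted p = 0.0402), and MALAT1 for the combination (0.88, adjusted p = 0.00811). MIR17HG differed by 0.66 ± 0.36 (adjusted p = 0.295), -0.96 ± 0.36 (adjusted p = 0.0664) and 0.88 ± 0.36 (adjusted p = 0.0753) for cytarabine, daunorubicin and the combination, and none of these passed.

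The treatments of a line were also compared with each other. In MOLM13 no member differed between the combination and daunorubicin in edgeR's test (2 with an unadjusted p under 0.05), where 0% of all genes passed and 320 genes had an unadjusted p under 0.05. The difference was 0.04 ± 0.20 for MIR34AHG, 0.07 ± 0.14 for MALAT1 and 0.48 ± 0.15 for MIR17HG. The combination exceeded cytarabine in 4 of 9 members, against 26.3% of all genes: NEAT1 (1.79 ± 0.41, adjusted p = 0.0106), MALAT1 (0.95 ± 0.14, adjusted p = 0.00315), MIR34AHG (0.95 ± 0.20, adjusted p = 0.008) and PVT1 (0.63 ± 0.16, adjusted p = 0.0155). Cytarabine and daunorubicin differed in 5 of 9 MOLM13 members, against 26.1%, with NEAT1, MALAT1, PVT1 and MIR34AHG lower and MIR17HG higher with cytarabine.

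In HL60 the difference between cytarabine and daunorubicin passed for 1 of 7 members, against 16.5% of all genes: MIR17HG was lower with cytarabine, with a log2 fold change of -1.10 ± 0.30 (adjusted p = 0.0263). The combination differed from daunorubicin in 2 of 7, against 33%, with MIR17HG at -1.34 ± 0.30 (adjusted p = 0.00449) beside the LINC-PINT value above. Between the combination and cytarabine MIR17HG differed by -0.24 ± 0.31 (adjusted p = 0.897).

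Paraspeckles need NEAT1 and a set of RNA-binding proteins, and the mRNAs of these proteins fell in MOLM13 after daunorubicin and the combination, where NEAT1 rose, and also after treatments for which NEAT1 did not pass the test. All 13 paraspeckle proteins listed were tested in each line. After daunorubicin in MOLM13, 13 of 13 fell and none rose at the false discovery rate alone, with 2 called (NUDT21 and RBM14) and a median log2 fold change of -0.678 against 0.0681 for all genes, of which 52.7% passed in either direction. After the combination 13 of 13 fell again, 4 of them called, where 53.1% of all genes passed. After cytarabine, where NEAT1 did not pass, 11 of 13 fell with a median of -0.39, against 34.9% of all genes. SFPQ, a core paraspeckle protein, fell by 0.68 ± 0.07 (adjusted p = 2.26e-05) after daunorubicin and NONO, its partner, by 0.40 ± 0.06 (adjusted p = 0.000169). In HL60, 10, 9 and 10 of 13 fell after cytarabine, daunorubicin and the combination, with medians of -0.707, -0.369 and -0.801, against 45.6%, 21.9% and 53.3% of all genes that passed. OCIAML3 with 10 libraries had 10 and 12 of 13 that fell after daunorubicin and the combination, against 31.3% and 41.7%. With all 12 libraries 0 of 13 passed after either treatment, where 0% of all genes passed. In each of these comparisons 0 of 13 rose.

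Of the 10 genes of microRNA processing, more fell than rose in the comparisons below, apart from those over all 12 OCIAML3 libraries. The shares of all genes beside these counts hold both directions, so they do not show how usual a fall was. In HL60, 6, 1 and 6 fell after cytarabine, daunorubicin and the combination and 1 rose, after the combination, where 45.6%, 21.9% and 53.3% of all genes passed. In MOLM13, 4, 5 and 5 fell and 0, 2 and 3 rose, against 34.9%, 52.7% and 53.1%. In the 10 OCIAML3 libraries 5 and 6 fell after daunorubicin and the combination and 0 rose, against 31.3% and 41.7%. With all 12 libraries 0 of 10 passed after either treatment, where 0% of all genes passed. After the combination in MOLM13, DGCR8, the partner of DROSHA, was called at -1.01 ± 0.09 (adjusted p = 1.49e-05). XPO5, the hairpin exporter, fell by 0.92 ± 0.07 (adjusted p = 8.3e-06) after daunorubicin in MOLM13 and by 1.12 ± 0.17 (adjusted p = 0.000108) after the combination in HL60, where it was the only gene of the list called. DICER1 fell by 0.59 ± 0.15 (adjusted p = 0.00487) after cytarabine in HL60 and was at -0.08 ± 0.07 (adjusted p = 0.414) in MOLM13. AGO2, the slicing argonaute, fell by 0.79 ± 0.08 (adjusted p = 2.08e-05) in MOLM13 and by 0.79 ± 0.25 (adjusted p = 0.0174) in HL60 after the combination.

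**Figure D5:**
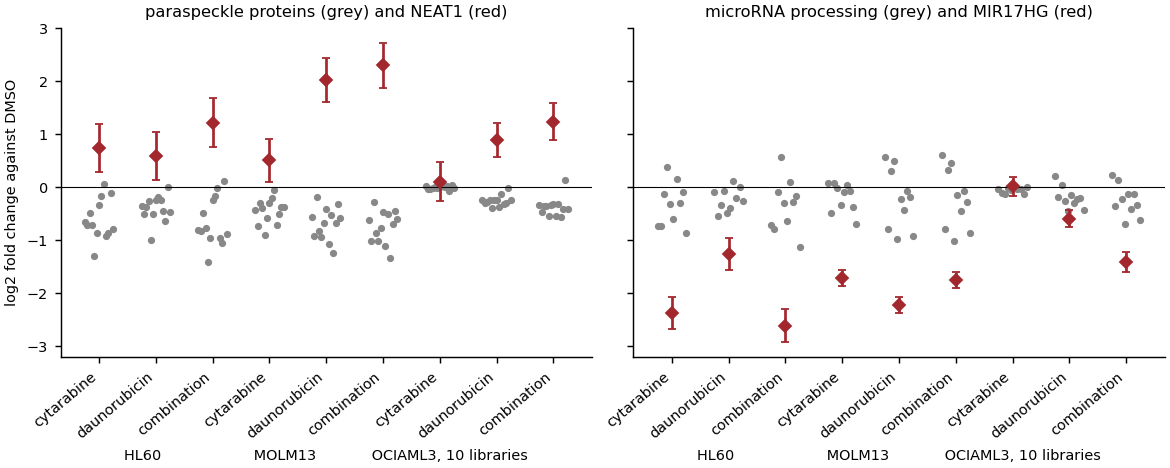
Log2 fold change against DMSO of the 13 paraspeckle protein genes (grey, left) with NEAT1 (red, with its standard error), and of the 10 microRNA processing genes (grey, right) with MIR17HG (red), for HL60, MOLM13 and the 10 OCIAML3 libraries. After daunorubicin and the combination in MOLM13, NEAT1 lay above 0 and all 13 paraspeckle proteins lay below it.

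Among 28 other microRNA host lncRNAs of the annotation, 16 were tested in HL60 and in MOLM13. DLEU2, the host of miR-15a and miR-16-1, was called down in all 3 comparisons of MOLM13, at -1.18 ± 0.10 (adjusted p = 4.02e-05), -1.39 ± 0.10 (adjusted p = 6.36e-06) and -1.48 ± 0.10 (adjusted p = 9.08e-06), and in HL60 after cytarabine (-1.08 ± 0.21, adjusted p = 0.0012) and the combination (-1.01 ± 0.21, adjusted p = 0.00133). MIR223HG, the host of a microRNA of granulocytes, was called up in HL60 after cytarabine and the combination, at 1.13 ± 0.23 (adjusted p = 0.00156) and 1.74 ± 0.24 (adjusted p = 4.26e-05). In MOLM13, MIR646HG rose by 1.59 ± 0.27 (adjusted p = 0.000494) after daunorubicin, and in HL60 it fell by 0.79 ± 0.12 (adjusted p = 0.000192) after cytarabine. Since the drugs differ, these MIR646HG values do not compare the lines. Over the 16, 6 rose and 2 fell in MOLM13 after daunorubicin, a share near the 52.7% of all genes that passed there, with a median of 0.224 against 0.0681.

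Of the other regulatory lncRNAs, 20 were tested in HL60 and 21 in MOLM13. In MOLM13 after daunorubicin 10 rose and 4 fell, with a median of 0.568 against 0.0681 for all genes, and after the combination 10 rose and 3 fell, where 52.7% and 53.1% of all genes passed in either direction. PURPL, a long intergenic RNA, was called up in MOLM13 after each treatment, by 1.09 ± 0.21 (adjusted p = 0.00231), 2.07 ± 0.22 (adjusted p = 2.26e-05) and 2.14 ± 0.22 (adjusted p = 2.24e-05), and in the 10 OCIAML3 libraries after daunorubicin, by 2.80 ± 0.29 (adjusted p = 0.000678). With all 12 OCIAML3 libraries, 0 of the 21 lncRNAs tested from this list passed after daunorubicin. DINOL, which is transcribed beside CDKN1A, was called up in MOLM13, most after cytarabine at 4.18 ± 0.84 (adjusted p = 0.0028). PURPL and DINOL were under the count filter in HL60. DANCR, a snoRNA host, fell in all comparisons of MOLM13 and HL60, for instance by 1.42 ± 0.14 (adjusted p = 6.96e-05) in MOLM13 after cytarabine. In HL60 after cytarabine 3 of these 20 lncRNAs rose and 5 fell, where 45.6% of all genes passed.

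Of 12 listed regulators of the members, 4 rose and 5 fell in MOLM13 after daunorubicin and 5 rose and 1 fell in HL60 after cytarabine, where 52.7% and 45.6% of all genes passed. MDM2, a ubiquitin ligase, rose in MOLM13 by 1.59 ± 0.18 (adjusted p = 0.000125), 2.32 ± 0.19 (adjusted p = 8.41e-06) and 2.25 ± 0.19 (adjusted p = 1.14e-05) after cytarabine, daunorubicin and the combination, and was at -0.03 ± 0.10 (adjusted p = 0.85), -0.16 ± 0.10 (adjusted p = 0.29) and -0.10 ± 0.10 (adjusted p = 0.419) in HL60. E2F1, an activator of MIR17HG, fell by 2.28 ± 0.62 (adjusted p = 0.00944) in MOLM13 after daunorubicin and rose by 0.91 ± 0.18 (adjusted p = 0.00105) in HL60 after cytarabine. These E2F1 values are from different drugs and do not compare the lines. NFKB1 and RELA, subunits of the NF-kB factor that drives MIR155HG, were at -0.26 ± 0.10 (adjusted p = 0.0521) and -0.18 ± 0.05 (adjusted p = 0.0166) in MOLM13 after daunorubicin.

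The coding genes whose pattern was most like that of a member were taken from Pearson's r of log2 CPM, centred within each line, over the 24 HL60 and MOLM13 libraries and 9685 coding genes. These are descriptions across libraries that share treatments. MIR17HG was most like NOP56, a protein of snoRNA particles (r = 0.961), NARS2 (r = 0.959) and SPRYD7 (r = 0.958). MALAT1 was most like TTLL3 (r = 0.956), BCAS3 (r = 0.955) and AP1G2 (r = 0.954). NEAT1 was most like ZNF875 (r = 0.928), CCNL2, a cyclin of nuclear speckles (r = 0.92) and APBB3 (r = 0.919). For PVT1 these were TSPAN32 (r = 0.942), NADSYN1 (r = 0.929) and CYFIP2 (r = 0.911), and for TP53TG1 they were GABARAP, an autophagy protein (r = 0.921), NDUFB5 (r = 0.917) and TOM1 (r = 0.9). LINC-PINT reached 0.875 with CRTC2, 0.86 with ABCA5 and 0.847 with GRIPAP1, and MIR22HG no more than 0.658 with ACADM, 0.635 with SH3KBP1 and 0.618 with SERINC1. Between members, r was 0.886 for MALAT1 and TP53TG1, 0.876 for NEAT1 and MALAT1, and 0.8 for MALAT1 and PVT1. MIR17HG was negative against each of the 6 other members measured in both lines, from -0.312 with MIR22HG to -0.665 with MALAT1.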

How the data were processed

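The 36 libraries were grouped from the sample labels. After FastQC 0.11.9 the authors ran Salmon 1.8.0 on Ensembl transcripts of GRCh38 (release not given in the sources used here) and deposited estimated counts, not normalized, effective lengths and TPM values per transcript, made by Salmon from unstranded paired-end libraries. The paper used edgeR 3.38.1 after tximeta.

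Estimated counts were summed over 235378 of 252199 transcripts that matched GENCODE release 44 by identifier (16821 unmatched, 3.99 to 4.52% of counts) and rounded. Transcript sets differ: the files list 16 of 66 MALAT1 transcripts of that release, 32 of 69 for LINC-PINT and 5 of 16 for MIR17HG. Low genes were removed by filterByExpr (count of 10, total of 15) and the rest scaled by TMM and tested with glmQLFit and glmQLFTest of edgeR 4.0.16 (R 4.3.3) over the 12 libraries of a line, without a block, with Benjamini-Hochberg adjustment over all genes. Standard errors (after ±) of fold changes are their size divided by the square root of F. Differences between lines used 24 libraries, and DMSO levels the 9 DMSO libraries. Alternatives included DESeq2 1.42.0. The code was tested on simulated counts. All replicate pairs differed beyond sampling noise (chi-square per degree of freedom of at least 6.81). Same-numbered HL60 libraries deviated together (18 of 18 correlations over 0.1, 0.105 to 0.382), as shown by the data and not the labels. Figures were made with Python 3.11.15 and matplotlib 3.10.9.

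Coding genes that overlap a member or lie within 10 kb, MYC, and the 3 most similar coding genes of each member (mean of at least 5 CPM) were named beside the fixed lists. The members and lists were chosen with earlier results of these data known. Not analysed here were mature microRNAs and strand, and values of some listed regulators are not reported here.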

Additional observations from a re-analysis of the deposited data

Results flagged for a closer look

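The difference between the responses of MOLM13 and HL60 passed the test of the difference itself for PVT1 after daunorubicin (log2 difference 1.35 ± 0.24, adjusted p = 0.000795) and after the combination (1.47 ± 0.24, adjusted p = 0.000158). PVT1 lay above DMSO in all 3 MOLM13 libraries of both treatments and overlapped DMSO in HL60. It also passed for MALAT1 after daunorubicin (0.96 ± 0.33, adjusted p = 0.0456), where every daunorubicin library of both lines lay above DMSO. The MALAT1 difference missed the threshold in 18 of the 24 fits that left out 1 library each (0.77 to 1.21) and in a fit of all 36 libraries (0.91, adjusted p = 0.108). All 3 come from edgeR's quasi-likelihood test over 24 libraries.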

How the results depend on the processing

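Of 2928 member values recomputed under the alternatives, 2846 kept their status as called or not called. Another 45 lost a call, 37 gained one and 0 reversed while called. The 2846 include values that were not called and stayed so. A change against DMSO that passed at the false discovery rate alone counts here as not called, so these numbers do not measure how stable it was. In HL60 after the combination, 2 members were called, 1 with DESeq2 or transcript length offsets, 4 at the false discovery rate alone and 1 to 4 with 1 library left out. In MOLM13 after cytarabine, 5 passed at the false discovery rate alone. In OCIAML3 after the combination, 0 members were called with 12 libraries and 4 without the 2 that stand apart (chosen once their values were known), and 0 to 4 with 1 library left out, the 4 without replicate 3 of the combination. With 10 libraries, the filter on low counts removed gave 1 call after cytarabine and 1 after daunorubicin, both MIR22HG, the false discovery rate alone gave 6 after daunorubicin and 8 after the combination, and leaving out 1 library gave 0 to 1 after daunorubicin. Between HL60 and OCIAML3 with DMSO, leaving out 1 library gave 3 to 6. Of the differences between MOLM13 and HL60, leaving out 1 library gave 0 to 1 for cytarabine, 1 to 3 for daunorubicin and 1 to 2 for the combination, and a fit of all 36 libraries gave 1 for daunorubicin. The cause of these changes was not tested.

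With the replicate number as a block, 1 member was called for the difference after cytarabine, 3 for that after daunorubicin, 3 for that after the combination and 1 in the 10 OCIAML3 libraries after daunorubicin. The block changed no count of called members in the comparisons with DMSO of HL60, MOLM13 or the 12 OCIAML3 libraries. The median correlation of same-numbered libraries was 0.18 in HL60. It was lower in MOLM13 (0.0606, from -0.0115 to 0.39, 4 of 18 over 0.1) and OCIAML3 (0.0524, from -0.283 to 0.484, 6 of 18). The lowest OCIAML3 value was between the 2 libraries that stand apart. These values do not show that pairing was absent in MOLM13 or OCIAML3. Counts near 0, as for MIR34AHG, MIR155HG and MIR22HG in HL60, limit what is detectable, as does the spread between replicates for MIR22HG in MOLM13 and OCIAML3.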
